A study of Homo sapiens with 4 samples.

Results

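Expression of 10 core genes of the Notch pathway was followed in KMS11, an established human line of malignant plasma cells from multiple myeloma. They were taken by symbol and comprise the receptor genes NOTCH1, NOTCH2, NOTCH3 and NOTCH4, the ligand genes JAG1, JAG2 and DLL1, the DNA-binding factor gene RBPJ, and the target genes HES1 and HEY1. All 10 were found among the 62069 genes counted in each library. NOTCH4 is also listed under 6 further identifiers on alternate sequences, which held 0 fragments in the 4 libraries together. RNA was sequenced from 2 libraries of cells given lentivirus with an shRNA against NSD2 and from 2 libraries of cells given a control shRNA. Infection was done in 10 µg/mL of polybrene, the medium was changed, and cells were collected 72 h later, which was 96 h after infection. All libraries share the cell line, the infection and the t(4;14) translocation named in the title of the series, which places the histone methyltransferase gene NSD2 under an immunoglobulin enhancer. KMS11 is a single line. Nothing in the labels ties the replicates to separate cultures, and p-values here therefore reflect variation among these libraries alone, which may be technical.

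Notch signalling runs between touching cells. A Jagged or Delta ligand on one cell pulls on a Notch receptor of its neighbour, an ADAM protease and then gamma-secretase cut the receptor, and the freed intracellular part enters the nucleus. There it binds RBPJ and Mastermind-like co-activators and turns on target genes, of which the bHLH repressor genes of the HES and HEY families are the best known. Without that receptor fragment, RBPJ sits with co-repressors. In multiple myeloma, Notch is known for signals between the malignant plasma cells and the bone marrow stroma, and JAG2 is known to be overexpressed in the malignant cells.

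The letters that RBPJ reads are short enough to be seen in a promoter. The 250 bases before the start of HES1, the textbook target, and of NOTCH1, the receptor gene that rose, are given 5′ to 3′ on the strand of the gene from the RefSeq tables on GRCh38.p14. Capitals mark TGGGAA or its reverse complement TTCCCA, the core of the RBPJ motif. The HES1 window is chr3:194135898-194136147 on the plus strand, and the NOTCH1 window is chr9:136546049-136546298 on the minus strand.
HES1: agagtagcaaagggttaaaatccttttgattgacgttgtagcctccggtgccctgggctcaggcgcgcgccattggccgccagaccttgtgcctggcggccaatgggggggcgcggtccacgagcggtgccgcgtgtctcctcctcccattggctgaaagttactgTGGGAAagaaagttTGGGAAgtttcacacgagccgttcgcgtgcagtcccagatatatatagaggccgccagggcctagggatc
NOTCH1: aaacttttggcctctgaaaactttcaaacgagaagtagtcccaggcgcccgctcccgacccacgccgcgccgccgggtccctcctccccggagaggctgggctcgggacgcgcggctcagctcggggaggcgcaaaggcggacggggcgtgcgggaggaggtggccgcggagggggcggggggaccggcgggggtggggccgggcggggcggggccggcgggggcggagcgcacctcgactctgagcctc
Both matches of HES1 read TGGGAA on the strand shown, and they begin 84 and 70 bases before the start. The NOTCH1 window held 0 matches. Windows were searched for 8 of the 10 genes, and RBPJ has 5 of them. The promoters of DLL1 and HEY1 were not searched, so whether they hold the core was not tested. Among the searched windows, only the HES1 window and 1 of the 5 RBPJ windows held the core, each with 2 matches. Of 35116 RefSeq windows of 250 bases, with no chromosome left out, 20.8% held it. The palindrome CACGTG, an E-box of the kind bHLH proteins bind, was in none of the searched windows and in 6.34% of all. A match is a description of the letters and not evidence of binding.

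The libraries labelled NSD2 knockdown held 48334736 and 55059566 counted fragments, and the control libraries held 50417758 and 46728940. NSD2 itself stood at 919 and 1156 CPM (fragment counts divided by TMM-adjusted library size) in the libraries labelled knockdown, against 1121 and 1471 CPM in the control libraries. These groups overlapped, and the log2 fold change of -0.32 (95% interval -0.66 to 0.02, edgeR adjusted p = 0.244) did not pass the test, so the first group is called by its label throughout. NSD2 passed without control library 1 (log2 fold change -0.50, edgeR adjusted p = 0.0196), without knockdown library 2 (-0.50, edgeR adjusted p = 0.0268), with no filter (-0.32, edgeR adjusted p = 0.0173) and with a replicate block (-0.32, edgeR adjusted p = 0.0197). With terms for GC content and length its log2 fold change was 0.0185 (edgeR adjusted p = 0.945). Plasma cell markers were present, apart from CD38, which was very low. Their 9 genes summed to 8231 and 9073 CPM in the libraries labelled knockdown and to 8957 and 8986 CPM in the control libraries. JCHAIN supplied most of that sum. Of the 9, IRF4, SLAMF7 and CD38 were lower and SDC1 and XBP1 higher in both libraries labelled knockdown than in both controls. SLAMF7 stood at 109.7 and 129 CPM in the libraries labelled knockdown, against 237 and 272 CPM in the control libraries. CD38 was at 0.290 and 0.0369 CPM in the libraries labelled knockdown, against 1.54 and 0.700 CPM in the control libraries. Myeloid markers summed to 0.0593 to 0.129 CPM over the libraries, and 4 of 4 B cell, 3 of 3 endothelial and 4 of 5 stromal markers were below 1 CPM throughout. The epithelial markers KRT8, KRT18, CDH1 and EPCAM moved with the groups: they summed to 34.4 and 32.9 CPM in the libraries labelled knockdown, against 66.3 and 53.8 CPM in the control libraries. Of the T cell markers, CD3E was at 2.61 and 2.56 CPM in the libraries labelled knockdown, against 4.33 and 3.65 CPM in the control libraries, CD2 overlapped and CD3D was at 0 in each library. The part of these markers in the results was not tested. In bulk RNA, fewer cells that express a gene and less RNA of it per cell cannot be told apart.

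**Figure D1:**
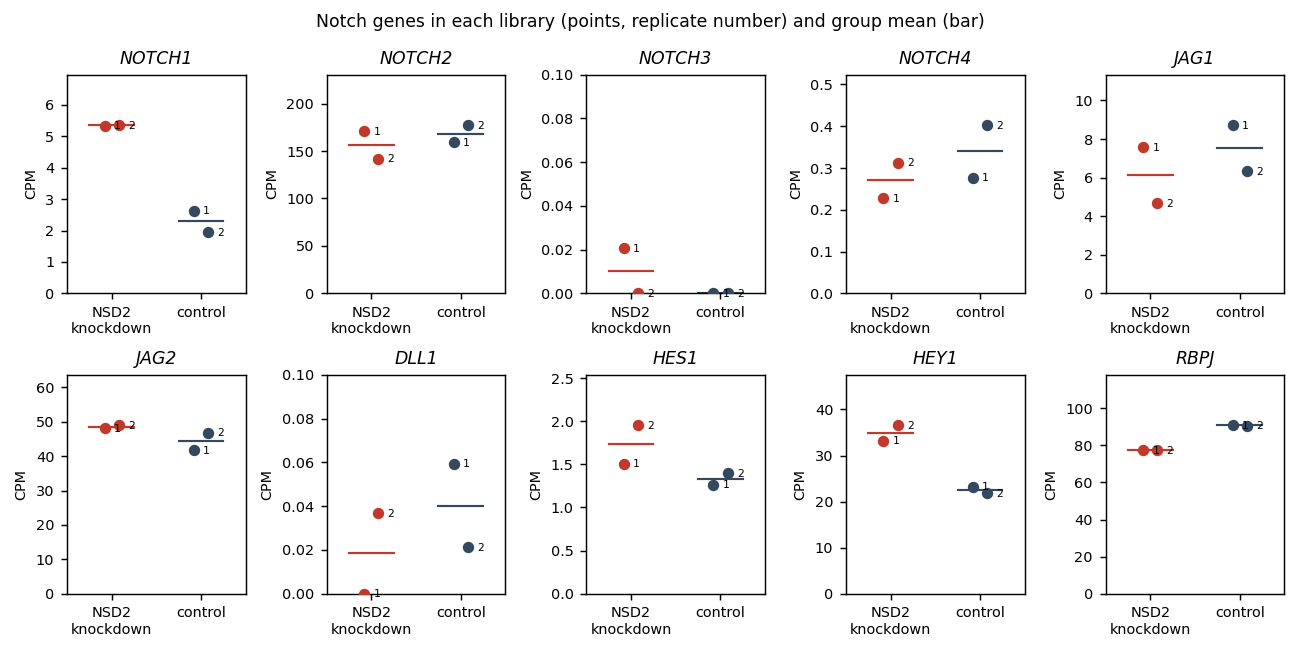
Level of each of the 10 Notch genes in CPM (vertical axes, each from 0) in the libraries labelled NSD2 knockdown (red, left) and the control libraries (dark, right). Points are libraries with their replicate number and bars are group means. NOTCH1, HEY1, JAG2 and HES1 stand higher in both libraries labelled knockdown, and of these NOTCH1 and HEY1 passed the test. RBPJ stands lower there without passing the test, and NOTCH3 and DLL1 are near 0.

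The receptor gene NOTCH1 and the target gene HEY1 rose in the libraries labelled NSD2 knockdown. NOTCH1 rose 2.33-fold and HEY1 rose 1.55-fold. Of the 10 genes, 8 passed the filter on low counts, and of these 2 rose, 0 fell and 6 did not pass the test at an adjusted p of 0.05. Across the 17172 genes tested, 1.74% were called higher and 4.19% lower, which is 299 and 719 genes, and the split was 680 higher and 627 lower with terms for GC content and length. RBPJ was the 1 gene of the 8 that was lower at an unadjusted p below 0.05 in edgeR, and DESeq2 and limma-voom called 0 falls. Over all 17172 genes tested, 1624 were higher and 2241 lower at that unadjusted p. The median log2 fold change of the 8 genes was 0.01, beside -0.0016 over all genes tested.

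Of the receptors, NOTCH2 supplied nearly all of the transcript. NOTCH2 (ENSG00000134250, chromosome 1, 120454176 to 120612240 on GRCh37, as for all gene positions below) measured 170.6 and 141.9 CPM in the libraries labelled knockdown, against 159 and 177 CPM in the control libraries. The groups overlapped, with the second library labelled knockdown lowest and the second control library highest. Its log2 fold change of -0.11 had a 95% interval of -0.36 to 0.15 (edgeR adjusted p = 0.627), which leaves room for a fold from 0.779 to 1.11. The sign turned with terms for GC content and length (0.11) and without the second library labelled knockdown (0.01). NOTCH2NL, a partial copy of NOTCH2 that is nearly identical to it, was listed with 0 fragments, so where the fragments of the shared part were placed is uncertain.

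NOTCH1, the receptor gene best known from T cell leukaemia, was far below NOTCH2 and changed most (ENSG00000148400, chromosome 9, 139388896 to 139440314). It had 258 and 291 fragments in the libraries labelled knockdown, against 133 and 92 in the control libraries. This was 5.34 and 5.36 CPM in the libraries labelled knockdown, against 2.63 and 1.95 CPM in the control libraries. The libraries labelled knockdown lay close together, and both stood above both controls, which differed more from each other. Distances between 2 libraries of a group are a poor measure of spread. Its mean was 5.35 ± 0.0185 CPM in the libraries labelled knockdown and 2.29 ± 0.481 CPM in the control libraries (SD, n = 2 each), a log2 fold change of 1.22 (SE 0.196, 95% interval 0.78 to 1.66, edgeR adjusted p = 0.0073). NOTCH1 shared no exonic base with another listed gene. It kept its call under each of the 13 alternative settings, with log2 fold changes from 1.02 without control library 2 to 1.46 without control library 1.

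The remaining receptors were at or near the limit of detection. NOTCH4, known mainly from endothelial cells, had 11 and 17 fragments in the libraries labelled knockdown and 14 and 19 in the control libraries (chromosome 6, 32162620 to 32191844). Its groups overlapped, and its log2 fold change of -0.31 had a 95% interval of -1.22 to 0.59 (edgeR adjusted p = 0.70). GPSM3 covers 1.01% of its exonic bases, and fragments were counted without regard to strand. NOTCH3, known from vascular smooth muscle, had 1 fragment in the first library labelled knockdown and 0 in the other 3 libraries. A count of 0 allows up to 3 fragments, which is 0.0553 CPM in the second library labelled knockdown and 0.0593 and 0.0636 CPM in the controls, for counting error only. NOTCH3 did not pass the filter, and a change in it was not detectable at this depth.

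Per exonic length, the 4 receptors together came to 14.6 and 12.2 FPKM (fragments per kilobase of exon, scaled like CPM) in the libraries labelled knockdown and to 13.4 and 14.8 FPKM in the control libraries. NOTCH2 made up 96.1% and 95.3% of this sum in the libraries labelled knockdown, against 97.8% and 98.4% in the control libraries. The share of NOTCH1 was 3.70% and 4.43% in the libraries labelled knockdown, against 1.99% and 1.33% in the control libraries. NOTCH1 remained a small part of the receptor transcript, and the summed receptor level overlapped between the groups.

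Among the ligands, JAG2 was the main transcript and JAG1 the lesser one. JAG2 (ENSG00000184916, chromosome 14, 105607318 to 105635161) stood at 48.1 and 49.0 CPM in the libraries labelled knockdown and at 41.7 and 46.9 CPM in the control libraries. Both libraries labelled knockdown were above both controls, but the gap to the second control was smaller than the distance between the controls. Its log2 fold change of 0.13 (95% interval -0.09 to 0.35, edgeR adjusted p = 0.471) did not pass the test. An unnamed gene covers 7.33% of the exonic bases of JAG2, where the gene of origin of a fragment is uncertain.

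JAG1 (ENSG00000101384, chromosome 20, 10618332 to 10654608) was at 7.57 and 4.66 CPM in the libraries labelled knockdown and at 8.72 and 6.32 CPM in the control libraries. In each group the library numbered 2 was the lower one, and the groups overlapped. The log2 fold change was -0.30 with a 95% interval of -0.83 to 0.23 (edgeR adjusted p = 0.496). It ran from -0.69 without knockdown library 1 to 0.0013 without knockdown library 2. DLL1, a Delta ligand, had 0 and 2 fragments in the libraries labelled knockdown and 3 and 1 in the control libraries, and was not tested. JAG2 made up 86.6% and 91.3% of the FPKM of these 3 ligands in the libraries labelled knockdown, against 82.7% and 88.2% in the control libraries.

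RBPJ, which carries the signal of all Notch receptors to DNA, was well expressed and nearly the same in the 2 libraries of each group (ENSG00000168214, chromosome 4, 26165077 to 26436541). It stood at 77.6 and 77.4 CPM in the libraries labelled knockdown, against 90.8 and 90.7 CPM in the control libraries. The groups did not overlap, and the distance between them was many times that within them. With 2 libraries per group, the distance within a group is a poor measure of spread. The log2 fold change of -0.23 (SE 0.0885, 95% interval -0.43 to -0.03, fold 0.854) missed the threshold with an edgeR adjusted p of 0.168. The test takes the spread of a gene in part from that of all genes. With terms for GC content and length the log2 fold change was -0.09, and none of the 13 settings called it.

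HEY1, a bHLH repressor gene and direct Notch target, was the more abundant of the target genes and rose (ENSG00000164683, chromosome 8, 80676245 to 80680098). It had 1606 and 1984 fragments in the libraries labelled knockdown, against 1173 and 1030 in the control libraries. This was 33.2 and 36.6 CPM in the libraries labelled knockdown and 23.2 and 21.8 CPM in the control libraries, with no overlap. Its mean was 34.9 ± 2.36 CPM in the libraries labelled knockdown and 22.5 ± 0.962 CPM in the control libraries (SD, n = 2 each). This is a log2 fold change of 0.63 (SE 0.105, 95% interval 0.40 to 0.87, edgeR adjusted p = 0.00872). HEY1 kept its call under all 13 settings, with log2 fold changes from 0.55 without knockdown library 2 to 0.70 without knockdown library 1.

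HES1, the target whose promoter is shown above, was low and did not pass the test (ENSG00000114315, chromosome 3, 193853934 to 193856521). It had 73 and 106 fragments in the libraries labelled knockdown and 64 and 66 in the control libraries. Per exonic length this was 0.732 and 0.947 FPKM in the libraries labelled knockdown, against 0.614 and 0.679 FPKM in the control libraries, and both libraries labelled knockdown were above both controls. The log2 fold change of 0.38 had a 95% interval of -0.15 to 0.91 (edgeR adjusted p = 0.382), so a fold between 0.902 and 1.88 is allowed. That interval holds the fold change of HEY1, and the difference between the 2 genes was not tested. In all, the groups did not overlap for 5 of the 8 tested genes, beside 53.2% of all genes tested.

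**Figure D2:**
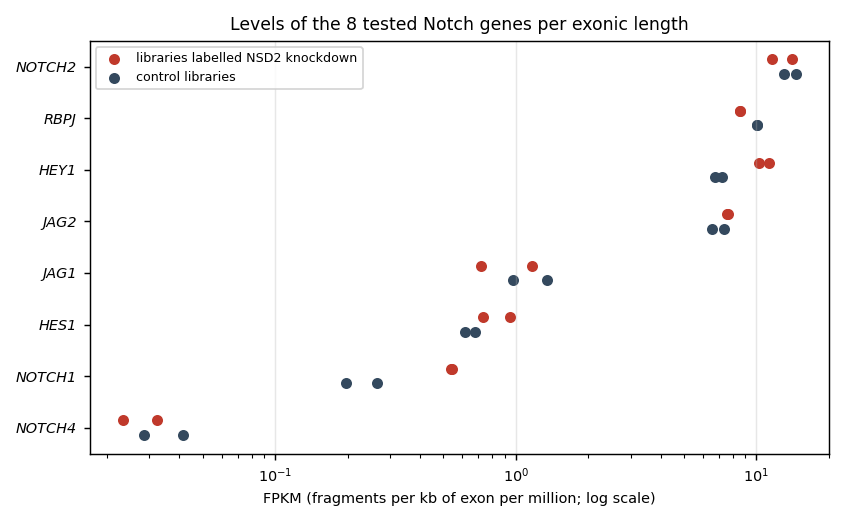
Level per exonic length in FPKM (horizontal axis, log scale) of the 8 Notch genes that passed the filter, 1 point per library, with the libraries labelled NSD2 knockdown in red above the control libraries in dark. NOTCH2 leads in both groups, and HEY1 lies above RBPJ in the libraries labelled knockdown and below it in the control libraries.

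HEY1 was second in the order of levels per exonic length in the libraries labelled knockdown and the third in the control libraries, and the order of the other tested genes was the same. In the libraries labelled knockdown the mean was 12.9 FPKM for NOTCH2, 10.8 for HEY1, 8.57 for RBPJ and 7.59 for JAG2, followed by 0.943 for JAG1, 0.840 for HES1, 0.541 for NOTCH1 and 0.0277 for NOTCH4. In the control libraries it was 13.8 FPKM for NOTCH2, 10.04 for RBPJ, 6.97 for HEY1, 6.92 for JAG2, 1.16 for JAG1, 0.646 for HES1, 0.232 for NOTCH1 and 0.0349 for NOTCH4. Neighbours in this order whose libraries overlapped were JAG1 and HES1 in the libraries labelled knockdown, and HEY1 and JAG2 in the control libraries. Among all tested genes, 78.6% had a lower mean FPKM than NOTCH2, 71.5% than RBPJ, 70.3% than HEY1 and 65.8% than JAG2. For JAG1, HES1, NOTCH1 and NOTCH4 this share was 31.9%, 26.6%, 17.9% and 0.547%.

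**Figure D3:**
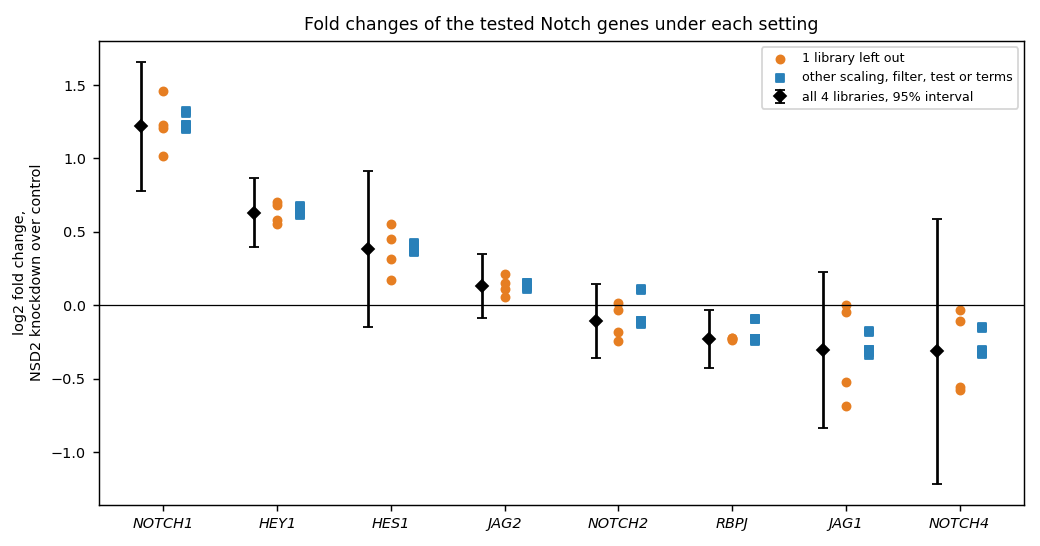
Log2 fold change, NSD2 knockdown over control (vertical axis), of the 8 tested Notch genes with all 4 libraries (black, bars are 95% intervals), with 1 library left out (orange) and under other settings (blue). The points of NOTCH1 and HEY1 all lie above 0, and those of NOTCH2 and JAG1 fall on both sides of it.

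The authors' deposited table, headed as M2 against LUC, gives a log2 fold change of 1.18 for NOTCH1 and of 0.63 for HEY1. Its adjusted p is 0.342 for NOTCH1 and 0.754 for HEY1 in the authors' deposited table, so neither passes there. Over all genes, 351 have an adjusted p below 0.05 there. NOTCH3 has a base mean of 5.86 normalized counts in the authors' deposited table, although the 4 libraries hold 0.25 fragments of it on average. Which libraries entered the authors' model is not given in the sources used here.

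Of 83 further genes of the pathway, in 9 lists by role, 76 were tested, of which 3 rose and 7 fell, beside 1.74% and 4.19% of all genes. Without control library 1 there were 5 rises and 12 falls. The median log2 fold change of the 76 genes was -0.10.

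**Figure D4:**
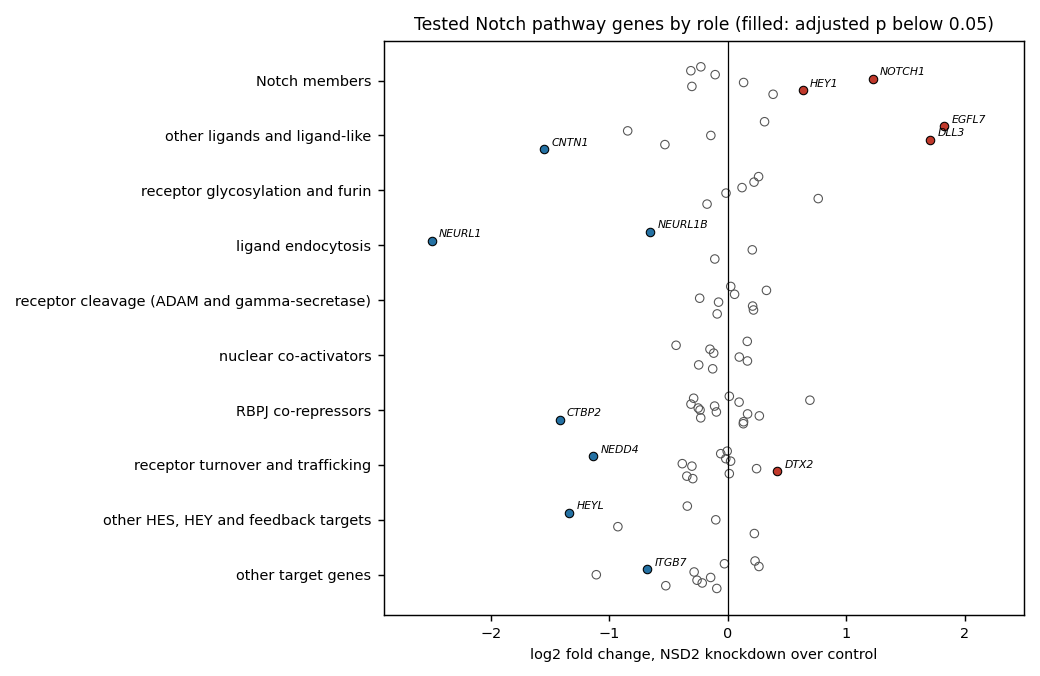
Log2 fold change, NSD2 knockdown over control (horizontal axis), of each tested gene of the pathway, by role. Filled points passed the test (red higher, blue lower) and are named, and open points did not pass.

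Ligands and ligand-like genes gave 2 rises and 1 fall among 7 tested. DLL3, a Delta-like protein known to inhibit Notch within the same cell, had 108 and 183 fragments in the libraries labelled knockdown, against 46 and 38 in the control libraries. It rose 3.27-fold (log2 fold change 1.71, edgeR adjusted p = 0.0064). EGFL7, a secreted protein known to bind Notch receptors in endothelial cells, rose to 8.77 ± 0.180 CPM in the libraries labelled knockdown, against 2.47 ± 0.559 CPM in the control libraries (SD, n = 2 each). CNTN1, a neural adhesion protein that can act as a Notch ligand, had 36 and 48 fragments in the libraries labelled knockdown, against 100 and 133 in the control libraries, and fell with a log2 fold change of -1.55 (edgeR adjusted p = 0.00927). For all 3 genes the groups did not overlap, as was so for 53.2% of all genes tested. DLL4 was at 0.474 CPM in the libraries labelled knockdown and 0.517 CPM in the control libraries, and DLK1 and MFAP5 had 0 fragments in each library.

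Of the 4 genes of ligand endocytosis 2 fell and 0 rose, and of the 12 tested genes of receptor turnover and trafficking 1 rose and 1 fell, with 2 falls without control library 1. NEURL1, a Neuralized E3 ligase gene whose fly relative drives the uptake of Delta, had 16 and 18 fragments in the libraries labelled knockdown, against 78 and 105 in the control libraries (log2 fold change -2.50, edgeR adjusted p = 0.00216). Its relative NEURL1B fell to 5.43 ± 0.774 CPM in the libraries labelled knockdown, against 8.54 ± 0.188 CPM in the control libraries (SD, n = 2 each). It did not pass when knockdown library 2 was left out (edgeR adjusted p = 0.264, range 0.00368 to 0.264 over the settings without a block). NEDD4, an E3 ligase gene of the endocytic route, fell to 4.15 ± 1.06 CPM in the libraries labelled knockdown, against 9.11 ± 1.25 CPM in the control libraries (SD, n = 2 each). MIB1, the main E3 ligase gene for ligand uptake in mammals, was far more abundant and did not pass (log2 fold change -0.11, edgeR adjusted p = 0.695). DTX2, a Deltex gene, rose 1.33-fold to 36.3 ± 0.773 CPM in the libraries labelled knockdown, against 27.3 ± 1.34 CPM in the control libraries. DTX2 did not pass with library size scaling or without control library 2, knockdown library 1 or knockdown library 2 (edgeR adjusted p, with that of DESeq2 and limma-voom, from 0.0114 to 0.125 over the settings without a block). Another gene covers 5.96% of the exonic bases of NEURL1B, and the pseudogene FDPSP2 covers 2.33% of those of DTX2.

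Of 6 genes of receptor glycosylation and furin cleavage 0 passed in edgeR, DESeq2 or limma-voom, with 0 at an unadjusted p below 0.05, though 1 rose without control library 1. Of 8 genes of ADAM and gamma-secretase cleavage 0 passed in any of these tools, with 2 higher and 1 lower at an unadjusted p below 0.05. Over all 17172 genes tested, 1624 were higher and 2241 lower at that unadjusted p. Of 8 co-activator genes, MAML1, EP300 and CREBBP included, 0 passed in any of the tools and 0 at an unadjusted p below 0.05, though 1 fell without control library 1. Among 15 co-repressor genes 1 fell: CTBP2, which had 45 and 51 fragments in the libraries labelled knockdown, against 137 and 108 in the control libraries (log2 fold change -1.42, edgeR adjusted p = 0.0071). ZRANB1 covers 4.48% of the exonic bases of CTBP2. Leaving out control library 1 gave 2 falls in this list, as did leaving out knockdown library 1. Of its genes, 3 were lower and 1 was higher at an unadjusted p below 0.05 with all libraries. SPEN, NCOR1 and HDAC1, partners of RBPJ when no Notch fragment is bound, had log2 fold changes of -0.31, -0.25 and 0.27 and did not pass.

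Among the other HES, HEY and feedback genes, 5 were tested, of which 1 fell and 0 rose in edgeR, DESeq2 and limma-voom. At an unadjusted p below 0.05 in edgeR, 0 were higher and 2 were lower, beside 1624 and 2241 of all 17172 genes tested. The log2 fold change was positive for 1 and negative for 4 of the 5. HEYL had 21 and 45 fragments in the libraries labelled knockdown, against 82 and 76 in the control libraries, and fell with a log2 fold change of -1.34 (edgeR adjusted p = 0.0337). Without knockdown library 1 it was -0.96 (edgeR adjusted p = 0.105, range 3.74e-05 to 0.105 over the settings without a block). HES6, the most abundant of the family, was at 90.5 ± 1.33 CPM in the libraries labelled knockdown and 77.5 ± 10.3 CPM in the control libraries (edgeR adjusted p = 0.258). NRARP, a feedback inhibitor gene that Notch induces, was at 5.57 ± 0.757 CPM in the libraries labelled knockdown and 7.04 ± 1.68 CPM in the control libraries (SD, n = 2 each, edgeR adjusted p = 0.340), with overlap. HES2, HES4 and HES5 had at most 3 fragments in any library.

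A last list held 13 genes named as Notch targets in other cells or as genes of myeloma, of which 11 were tested, 1 fell and 0 rose in edgeR. DESeq2 called 2 falls and limma-voom 1, both with 0 rises. At an unadjusted p below 0.05 in edgeR, 1 gene was higher and 5 were lower, beside 1624 and 2241 of all 17172 genes tested. CCND1, a cyclin gene, was the gene that DESeq2 added (DESeq2 adjusted p = 0.0149, edgeR adjusted p = 0.0543). The fall in edgeR was that of ITGB7, an integrin chain gene better known as a target of the factor MAF than of Notch. MAF, also in this list, was higher in both libraries labelled knockdown and did not pass (log2 fold change 0.26, edgeR adjusted p = 0.216). A part of MAF in the fall of ITGB7 was not tested. ITGB7 fell to 2200.2 ± 412 CPM in the libraries labelled knockdown, against 3521 ± 430.1 CPM in the control libraries (log2 fold change -0.68, edgeR adjusted p = 0.0238). Without control library 1 there were 3 falls in this list, and 3 without knockdown library 1. MYC, a target of NOTCH1 in T cell leukaemia, was at 431 ± 10.0 CPM in the libraries labelled knockdown and 439.5 ± 36.8 CPM in the control libraries, with a 95% interval of -0.25 to 0.20 for its log2 fold change. The target genes IL2RA and PTCRA of T cells had 0 and 1 fragments over the 4 libraries.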

How the data were processed

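RNA from 4 libraries was sequenced, 2 labelled NSD2 knockdown and 2 labelled control. The deposited file of a library gives the raw count of fragments for each Ensembl gene. The authors trimmed with Trim Galore 0.3.7, aligned with STAR 2.5.3 to GRCh37, ran Picard, and took counts with featureCounts (Subread 1.4.6), as the submitters' processing notes name them. Fragments were counted without strand from alignments whose names mark duplicate removal, per the file headers. The authors also deposited a DESeq2 table with a log2 fold change, its p-value and adjusted value, a base mean (a signal averaged over libraries that are not named) and the exonic length of each gene. Its 4 columns of counts per library were not used, nor was the 1 unnamed line of each count file.

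Counts were tested in edgeR 4.0.16 (R 4.3.3) with the quasi-likelihood F test, TMM scaling, the default low-count filter and no term beside the group. Every adjusted p comes from that fit, by Benjamini and Hochberg over 17172 genes, unless another tool or setting is named, and the threshold was 0.05. FPKM were computed from CPM and the deposited exonic length. An exact permutation test of 2 against 2 libraries cannot go below p = 0.333 and was not used. The replicates of a group differed beyond counting noise, with a chi-square per degree of freedom of 23.0 for the libraries labelled knockdown and 26.0 for the control libraries. The procedure was tested on simulated counts.

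The alternative settings were RLE and library size scaling, no filter, a filter of 1 CPM in 2 libraries, DESeq2 1.42.0, limma-voom (limma 3.58.1), a replicate block and leaving out each library. Smooth terms for GC content (GENCODE 29 transcripts, available with length for 96.3% of tested genes) and length were added after the data were seen, alone and with the block. The Notch genes, the lists and the tests were chosen with earlier results of these data known. All 10 genes are named, and from each list up to 3 genes that rose and 3 that fell, by smallest adjusted p. Other list genes named with values were picked for their role after the values were seen. Figures were drawn with matplotlib 3.10.9.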

Additional observations from a re-analysis of the deposited data

How the results depend on the processing

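NOTCH1 and HEY1 were the Notch genes called, both higher, under each of the 13 alternative settings, and 0 of the others passed under any of them, in edgeR, DESeq2 or limma-voom. The sign of NOTCH2 turned, to a log2 fold change of 0.11 with GC and length terms, alone and with the replicate block (0.11), and it ran from -0.24 to 0.0132 over the fits without 1 library. That of JAG1 ran from -0.69 to 0.0013 over those fits. NSD2 had log2 fold changes of 0.0185 and 0.0062 with GC and length terms, alone and with the block, and it was called, as a fall, without knockdown library 2, without control library 1, with no filter and with the block. Over the fits without 1 library, the other pathway genes gave 2 to 5 rises and 6 to 12 falls, and all genes gave 173 to 682 rises and 649 to 1342 falls. These fits leave 1 group with a lone library, whose variation is assumed to equal that of the others. With no filter 11 of the other pathway genes fell, and over all genes 658 rose and 1490 fell among 31645 tested. GC and length terms gave 5 rises among the other pathway genes and 680 over all genes. With the replicate block there were 5 rises and 15 falls among the other pathway genes, and 1327 and 1992 over all genes. With block and GC and length terms there were 15 and 14, and 3273 and 1865. The cause of these shifts was not tested. The number 2 minus number 1 differences of the 2 groups had a correlation of 0.24 across genes, which are not independent, but no label ties equal numbers to a pair. Depth limits NOTCH3, NOTCH4 and DLL1, with at most 19 fragments in any library.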

Other observations

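NOTCH1 lies in the distal part of chromosome 9, and tested genes near it also rose. Of 36 tested genes within 500 kb of NOTCH1, 9 rose and 0 fell in edgeR, beside 1.74% higher and 4.19% lower over all genes tested, and the median log2 fold change of the 36 was 0.33. This window was chosen after the values were seen. EGFL7, 113 kb away, had a log2 fold change of 1.82, GPSM1, 135 kb away on the other side, one of 1.82 too, and FAM69B, 167 kb away, one of 1.05. ABCA2 and NPDC1, at 461 kb and 494 kb, had log2 fold changes of 1.94 and 2.38, while those of AGPAT2, RABL6, SNHG7 and NACC2 were 0.63, 0.71, 0.60 and 0.41. Within 500 kb of HEY1, 4 genes were tested and 0 passed. Around JAG2 there were 3 rises and 2 falls among 31 tested genes, and around NOTCH4, which lies in the major histocompatibility region, 0 rises and 9 falls among 46. Falls numbered 1 of 5 around NOTCH2, 2 of 12 around NOTCH3 and 1 of 5 around RBPJ, with 0 rises in each, and 0 genes passed around JAG1 (3 tested), DLL1 (11) and HES1 (8). These windows hold few genes, and calls in them were not tested against other windows.

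Over the 4 libraries, the protein-coding genes whose centred log2 CPM lay closest to that of NOTCH1 were SERPINA1, SOX18 and ZFPM1, at root mean square differences of 0.05, 0.05 and 0.06. SERPINA1, a protease inhibitor gene, did not pass the test (edgeR adjusted p = 0.0544). Those closest to HEY1 were CBFA2T2, a co-repressor gene, MEIG1 and CCDC90B, at 0.02, 0.02 and 0.03, of which MEIG1 did not pass (edgeR adjusted p = 0.176). With 4 libraries in 2 groups, many genes can share such a pattern.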
